A study of Mus musculus with 2 samples.

Results

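Kinesins are motor proteins that walk along microtubules, and 39 genes of this family were followed in cultured mouse cavernous primary pericytes kept in normal or high glucose. A gene was a member if an array probe carried a RefSeq transcript of a symbol made of Kif, a number and at most 1 letter, or of Kifc1, Kifc2 or Kifc3. That gave 39 of the 20887 genes named on the array, out of 41 such symbols in the RefSeq table; Kif14 and Kif28 had no named probe. The pericytes were primary cells of the C57BL/6 mouse penis, and both groups were grown in DMEM with serum, antibiotics and human pigment epithelium-derived factor. They were exposed for 72 h to normal glucose (5 mmol as labelled, with no volume given) or high glucose (30 mmol). Each condition is a pool of RNA from 3 samples on 1 Agilent 1-colour array, so there is no replicate check and no test, and every difference is one between these 2 pools.

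Kinesins fall into groups by what they carry. The mitotic kinesins build the spindle, move and align chromosomes and complete cytokinesis; most of their messages are made mainly in G2 and M phase, so dividing cultures hold more of them than resting ones. The transport kinesins haul vesicles, organelles and ciliary cargo along interphase microtubules and are needed whether or not a cell divides. By these known roles 12 members were placed with the mitotic and 17 with the transport kinesins, and 10 had another, a mixed or a little known role. In bulk RNA, a different number of dividing cells and a different amount of message per cell cannot be told apart.

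Values are processed signals, a linear intensity with background subtracted, and the log2 ratio is high over normal glucose after each array was scaled to its 75th percentile. A probe's signal is set only against the same probe on the other array, since probes differ in how well they hybridise. A gene was called measured if its brightest probe was well above background on both arrays. This held for 14176 named genes (67.9%) and for 35 of the 39 kinesins: 11 mitotic, 16 transport and 8 others. The error of 1 spot was read from probes printed 10 times. In bands of the log2 signal, the SD of their log2 ratio had a median of 0.43 for signals under 64 and 0.19 up to 128. It was 0.10 up to 512, 0.044 up to 4096 and 0.032 for brighter probes. This spot SD covers the array only, not differences between cultures.

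Mitotic kinesins were mostly higher in high glucose, while transport kinesins showed no common shift. The median log2 ratio was 0.242 over the 11 measured mitotic kinesins (1.18-fold), -0.013 over the 16 transport kinesins and -0.007 over all 14176 measured genes. Of the mitotic kinesins 9 were higher and 2 lower, and of the transport kinesins 7 were higher and 9 lower, where 46.8% of all measured genes were higher. If arrays were instead set to equal medians, 27.3% of all genes were higher, with 9 of 11 mitotic but only 3 of 16 transport kinesins. A difference of at least 1.2-fold (0.26 on the log2 scale) was chosen as the line for naming a gene. It was passed upward by 5 mitotic and 2 transport kinesins, where 6.80% of all measured genes passed it. These counts were 3 and 0 with equal array medians, 3 and 1 with a position trend over the array removed, and 2 and 1 after normexp background correction. Downward it was passed by 1 mitotic and 0 transport kinesins, against a background of 5.51%. In 136 of the 176 pairs of a mitotic with a transport kinesin, the mitotic one had the higher ratio. The difference of the 2 medians was 0.255. The classes overlapped: Kifc1 and Kif11 lay below the transport median, and Kifc3 and Kif5c above the mitotic one.

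**Figure D1:**
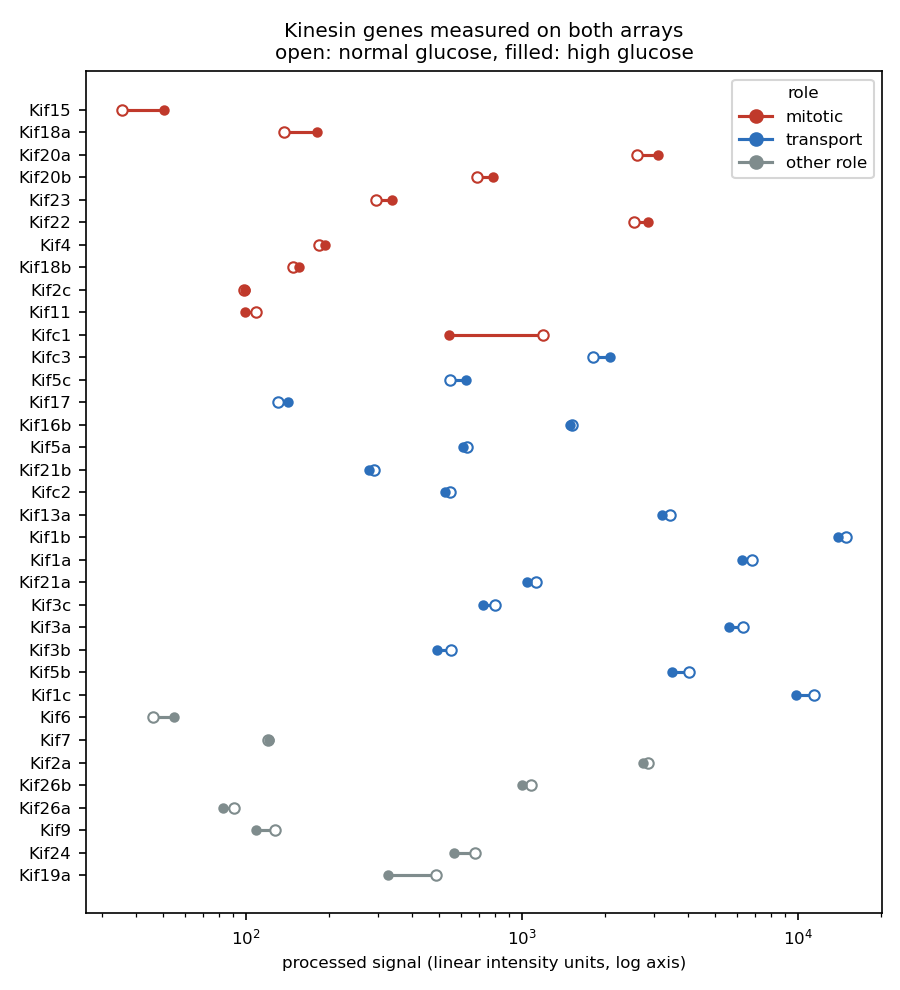
Processed signal of the 35 measured kinesin genes (log axis) in normal glucose (open) and high glucose (filled), 1 array each, coloured by role. Most red (mitotic) lines run to the right, toward the high glucose signal, and Kifc1, from 1192 to 542, runs the longest way to the left.

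Motors of the chromosome arms and of the spindle midzone were higher by at most 1.26-fold. Kif20a, which carries the chromosomal passenger complex to the midzone, gave 2610 on the normal and 3109 on the high glucose array. This was 1.26-fold higher (log2 ratio 0.33), with a spot SD of 0.044 at that signal. Kif20b, a midzone motor of late cytokinesis, had 685 and 787, or 1.21-fold higher. Kif23, the motor of the centralspindlin complex that builds the midbody, had 296 and 338, also 1.21-fold higher, from a dimmer probe with a spot SD of 0.10. Kif22, a chromokinesin that pushes chromosome arms away from the poles, had 2547 and 2851. Its ratio of 1.18-fold was the nearest below the 1.2-fold line, while Kif23 and Kif20b were the nearest above it among mitotic members. Dim spots around the Kif22 spot were shifted by 0.55 on the log2 scale in the same direction, and its own median pixel log2 ratio was 0.28; the part of that patch in the result was not tested. Kif4, the chromokinesin that condenses chromosomes and shortens the midzone with Prc1, had 184 and 194, 1.11-fold higher and between 1 and 2 spot SDs from 0.

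The motors that set spindle length ranged from -0.06 for Kif11 to 0.58 for Kif15. Kif18a, which caps microtubule plus ends and damps chromosome movements at the metaphase plate, had 137 and 181, 1.40-fold higher (log2 ratio 0.48, spot SD 0.10). Its dim neighbours were shifted the other way, by -0.35. Kif18b, its relative on astral microtubules, had 148 and 155, 1.11-fold higher. Kif2c, a depolymerase at kinetochores, had 98.4 and 99.4 (log2 ratio 0.09) on its brighter probe and 53.2 and 60.8 (0.27) on its second probe, both within about 1 spot SD of 0. Kif15, which helps to hold the poles apart, had the highest ratio of the family, 0.58, but from the dimmest measured signal, 35.6 and 50.4. A single spot that dim has an SD of 0.43, its median pixel ratio was 0.40, and its dim neighbours were shifted by 0.43. Kif11, the main motor that pushes the poles apart, stood at 109 and 99.0, with a log2 ratio of -0.06 well inside its spot SD of 0.19; its dim neighbours were shifted by -0.55. No mitotic kinesin was 1.5-fold higher, where 1.62% of all measured genes were; Kif15 lay just under that line.

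Kifc1 was the exception, and the only kinesin whose brightest probe differed by 1.5-fold in either direction. Kifc1 encodes a motor that walks toward minus ends, focuses the spindle poles and clusters extra centrosomes. Its probe read 1192 on the normal array but 542 on the high glucose array, a level 2.08-fold lower (log2 ratio -1.06), at a signal where a spot has an SD of 0.044. Of all measured genes 1.19% were at least 1.5-fold and 0.416% at least 2-fold lower. Among the 9587 measured genes with a mean signal of at least 512, 6 were as low as Kifc1 or lower, itself included. The spot was not flagged, its median pixel log2 ratio was also -1.06 and its dim neighbours were shifted by 0.11. Kifc1 rests on 1 probe, printed once. Mouse carries a closely related gene, Kifc5b, so what the probe detects is uncertain; the probe named for Kifc5b had 110 and 102, a log2 ratio of -0.03. Without Kifc1 the mitotic median was 0.258, with 9 of 10 members higher. Kif2b, a depolymerase of early mitosis, was measured on neither array, and Kif14, a cytokinesis motor, was matched to no probe.

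**Figure D2:**
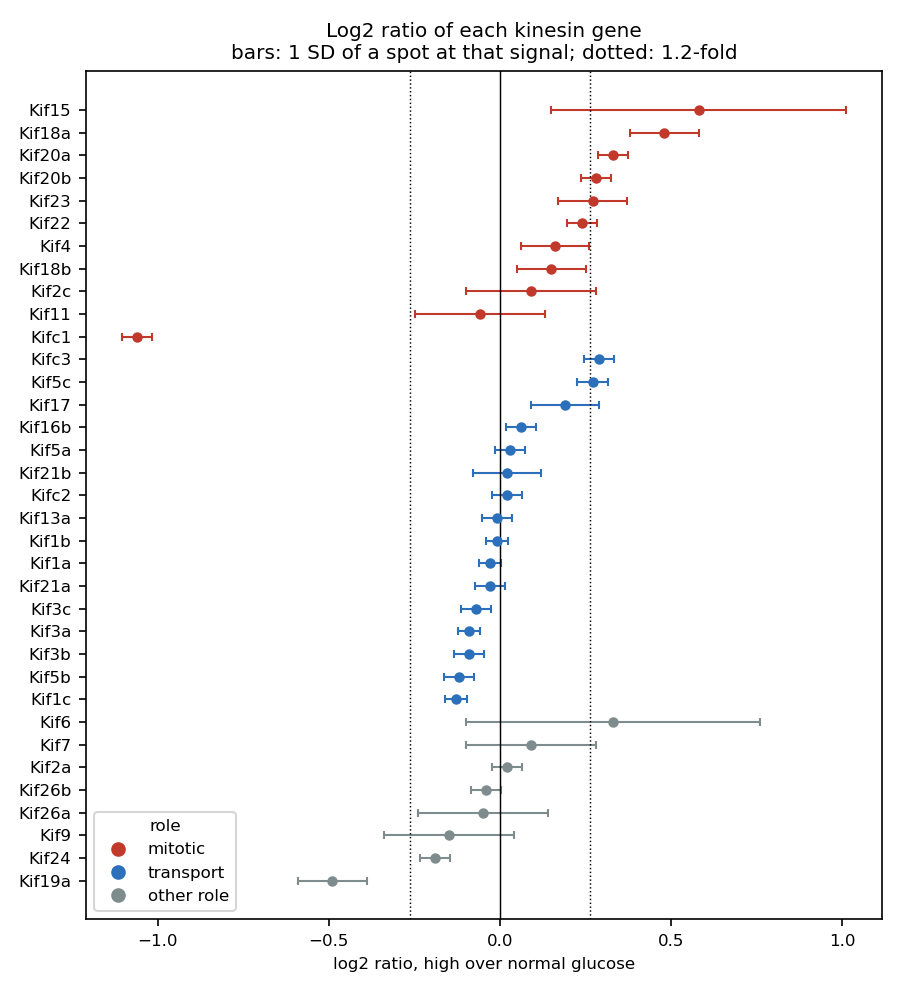
Log2 ratio of high over normal glucose for each measured kinesin, ordered within its role; bars show 1 SD of a single spot at that signal and dotted lines 1.2-fold. Of the 11 mitotic kinesins 9 lie right of 0, Kifc1 lies at -1.06, and the transport kinesins lie between -0.13 and 0.29.

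Because most mitotic kinesins differed in the same direction, their promoters were read for letters tied to cell cycle control. The cell cycle genes homology region (CHR) is the element TTTGAA near the start of many genes of G2 and M phase, which holds them off in resting cells, and CCAAT boxes often stand before it. Promoters from RefSeq (GRCm38.p6), from 250 bases before to 50 after each annotated start, matched 31 of the 39 members. Kif13b, Kif19a, Kif20a, Kif21b, Kif5a, Kif5b, Kifc2 and Kifc3 were not matched, and Kif14 has a promoter there without a probe. TTTGAA and CCAAT were each searched on the gene's strand and, by the reverse complement, on the opposite one. No match of the 1 motif overlapped a match of the other in these promoters. TTTGAA was found in promoters of 10 of 12 mitotic, 1 of 11 transport and 2 of 9 other kinesins, and in 17.9% of all 32851 promoters. Within the 100 bases from 75 before the start, it was found in 8, 1 and 2 of them, and in 5.24% of all promoters. CCAAT in those 100 bases was found in 7 mitotic, 2 transport and 2 other kinesins, and in 16.8% of all promoters. The 100-base window was chosen after the matches had been seen. A match is a run of letters, not a bound site, and these promoters were not assayed here.

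The 100 bases around the start are shown for the 8 mitotic kinesins with TTTGAA there and for Kif18a, a higher member without it. They are also shown for the transport motors Kif1c and Kif5c, which have neither motif. Each runs 5′ to 3′ on the gene's strand, with 75 bases before the start and 25 from it on, and capitals mark both motifs on either strand. In GRCm38.p6, with strand in parentheses, they are Kif11 chr19:37376307-37376406 (plus), Kif15 chr9:122951006-122951105 (plus), Kif22 chr7:127042396-127042495 (minus), Kifc1 chr17:33890609-33890708 (minus), Kif23 chr9:61946775-61946874 (minus), Kif18b chr11:102925100-102925199 (minus), Kif20b chr19:34922283-34922382 (plus), Kif4 chrX:100625990-100626089 (plus), Kif18a chr2:109280663-109280762 (plus), Kif1c chr11:70700473-70700572 (plus) and Kif5c chr2:49619211-49619310 (plus).
Kif11: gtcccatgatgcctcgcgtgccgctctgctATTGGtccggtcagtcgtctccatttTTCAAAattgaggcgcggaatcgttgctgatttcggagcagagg
Kif15: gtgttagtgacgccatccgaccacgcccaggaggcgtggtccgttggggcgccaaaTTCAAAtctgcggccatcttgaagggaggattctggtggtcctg
Kif22: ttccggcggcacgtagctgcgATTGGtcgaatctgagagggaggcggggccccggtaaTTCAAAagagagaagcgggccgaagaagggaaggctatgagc
Kifc1: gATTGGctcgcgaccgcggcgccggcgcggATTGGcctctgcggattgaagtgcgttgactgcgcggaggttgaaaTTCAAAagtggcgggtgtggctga
Kif23: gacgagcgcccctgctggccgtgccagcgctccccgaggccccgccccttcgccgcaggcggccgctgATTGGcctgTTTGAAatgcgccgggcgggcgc
Kif18b: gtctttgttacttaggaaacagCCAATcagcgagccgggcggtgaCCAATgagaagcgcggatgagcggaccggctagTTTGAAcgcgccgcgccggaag
Kif20b: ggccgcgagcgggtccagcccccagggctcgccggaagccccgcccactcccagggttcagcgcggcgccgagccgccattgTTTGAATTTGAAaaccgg
Kif4: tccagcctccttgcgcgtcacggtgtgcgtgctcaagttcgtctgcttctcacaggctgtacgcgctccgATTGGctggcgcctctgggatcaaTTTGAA
Kif18a: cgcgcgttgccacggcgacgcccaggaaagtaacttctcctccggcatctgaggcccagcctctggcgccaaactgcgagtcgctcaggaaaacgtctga
Kif1c: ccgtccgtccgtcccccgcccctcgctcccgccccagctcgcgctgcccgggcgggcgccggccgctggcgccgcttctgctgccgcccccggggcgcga
Kif5c: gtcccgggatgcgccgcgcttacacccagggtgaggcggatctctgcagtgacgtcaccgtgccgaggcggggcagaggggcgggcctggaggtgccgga

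Genes with the element close to the start differed in their ratios. Counting the annotated start as 0, TTTGAA began at -19 in Kif11 and Kif15 and at -17 in Kif22, on the opposite strand in all 3. It began at 1 in Kifc1, 2 in Kif23, 3 in Kif18b, 7 and 13 in Kif20b and 19 in Kif4. The log2 ratios of these 8 genes ran from -1.06 for Kifc1 through -0.06 for Kif11 to 0.58 for Kif15. Kif18a, with no match in its promoter, had 0.48, and Kif2c, with its match further off at -103, had 0.09. Kifc1, the lower one, thus has the same letters near its start, with 3 matches to CCAAT, of which the one at 24 runs past the bases shown. Outside the mitotic class TTTGAA lay in those 100 bases in Kif26b at -9, in Kif1a at -44, in 1 of 2 promoters, and in Kif27 at -73. The log2 ratios of Kif26b and Kif1a were -0.04 and -0.03, and Kif27 was not measured.

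**Figure D3:**
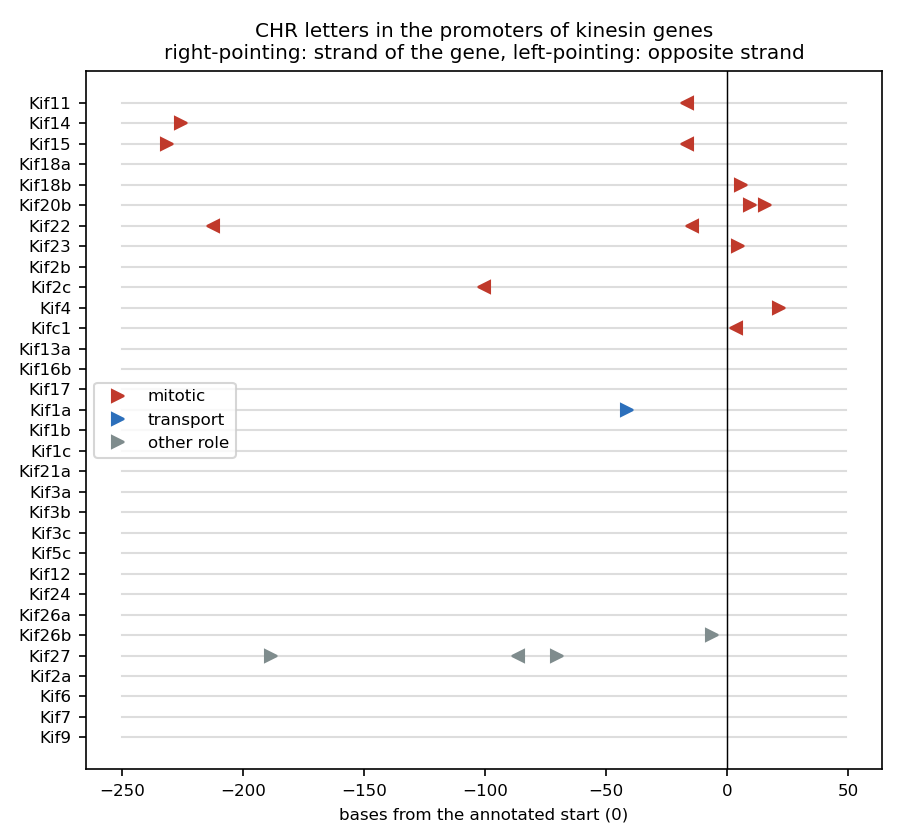
Position of TTTGAA (the CHR element) in bases from the annotated start, in the promoters of 12 mitotic, 11 transport and 9 other kinesin genes, Kif14 included; triangles point right where it reads on the gene's strand and left where it reads on the opposite one. Of the 12 mitotic genes 8 have a triangle close to the start, against 1 of 11 transport genes.

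The conventional kinesin heavy chains, which pair with light chains to carry vesicles, mitochondria and RNA, went in different directions. Kif5b, the form found in most tissues, had 4015 and 3497, a log2 ratio of -0.12 with a spot SD of 0.044. Kif5c, a form known best from neurons, had 548 and 624, a log2 ratio of 0.27 and the nearest above the 1.2-fold line. Its median pixel log2 ratio was 0.19, below that line. Kif5a, the other neuronal form, was printed 10 times with spot signals of 590 to 672 in normal glucose (median 639) and of 540 to 667 in high glucose (median 613). The spots of the arrays overlapped, 5 were higher and 5 lower, and the log2 ratio was 0.032 ± 0.11 (SD over 10 spots). That SD is larger than the 0.044 typical of its signal range, and a second, dim probe of Kif5a gave 0.40 from 41.9 and 52.3. The 3 heavy chains thus spread over about as much as the whole transport class.

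Motors of vesicles and organelles had ratios near 0 on their brightest probes. Kif1b, a carrier of mitochondria and synaptic vesicle precursors, had 14888 and 13942 (log2 ratio -0.01). Kif1a, the carrier of synaptic vesicle precursors, had 6790 and 6287 (-0.03). The second probe of each gave 0.12, so neither gene had probes of 1 sign. Kif1c, which moves integrin and dense core vesicles, had 11385 and 9837 (-0.13, the lowest of the transport class), about 4 spot SDs of 0.032 below 0. Its other probes went the same way and further, at -0.62 from 569 and 349 and at -0.23 from 189 and 152, so all 3 probes were lower but differed in size. Kif13a, which carries mannose 6-phosphate receptor vesicles, had 3423 and 3213 (-0.01). Kif16b, a motor of early endosomes, had 1513 and 1492 (0.06). Kif21a had 1122 and 1038 (-0.03) and its relative Kif21b 290 and 279 (0.02); both are known for pausing microtubule growth as well as for transport. Kif13b was well above background in high glucose only, with 27.5 and 32.7, or 1.26-fold higher from signals near the detection floor. That fold is the plain ratio of 2 dim spots and not a minimum. A spot that dim has an SD of 0.43, and the median pixel log2 ratio of Kif13b was 0.23.

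The Kif3 motors were all slightly lower on their brightest probes. Kif3a and Kif3b, the pair that drives intraflagellar transport outward, had 6301 and 5600 (-0.09) and 553 and 493 (-0.09). Kif3c, their relative, had 797 and 720 (-0.07). The second probes of Kif3a and Kif3b gave -0.02 each, and the median pixel ratio of Kif3b was 0.03, so its sign was not the same in all readings. Kif17, a motor of dendrites and of some cilia, had 131 and 142 (0.19, spot SD 0.10), with a median pixel ratio of 0.34. The motors that walk toward minus ends parted: Kifc3, known from cell junctions and the Golgi, had 1805 and 2081, 1.22-fold higher (0.29), the highest of the transport class, with dim neighbours shifted by 0.31. Kifc2, a neuronal motor of that kind, had 548 and 524 (0.02). Among transport kinesins measured on both arrays, Kif5c and Kifc3 were the 2 past 1.2-fold.

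**Figure D4:**
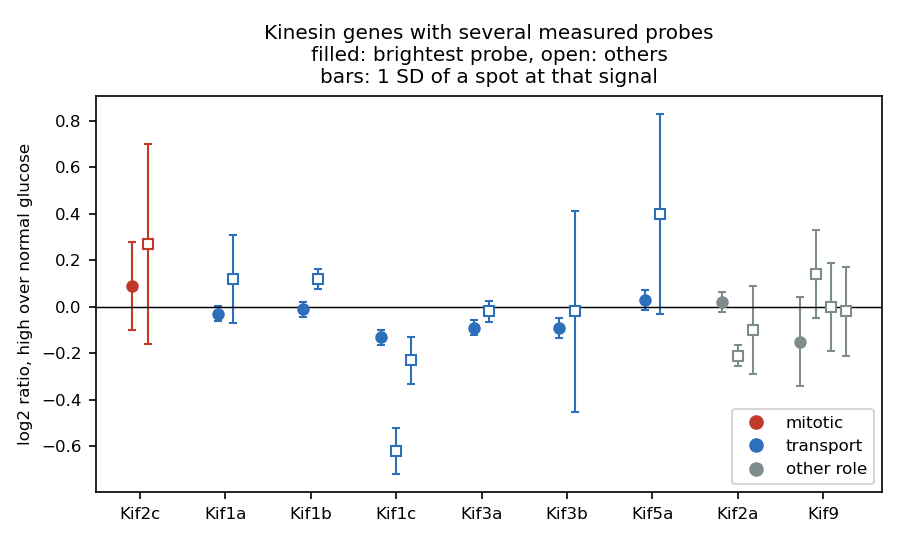
Log2 ratio of every measured probe of the 9 kinesins with more than 1 measured probe; filled points are the brightest probes, open ones the others, and bars show 1 SD of a spot at that signal. All measured probes share a sign in 5 of the 9, among them the 3 probes of Kif1c, at -0.13, -0.62 and -0.23.

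The 8 other measured kinesins had a median of -0.044, with 3 higher and 5 lower on their brightest probes. Kif19a, a depolymerase that limits the length of cilia, had 487 and 328, 1.41-fold lower (log2 ratio -0.49) and the only other member past 1.2-fold downward. Its dim neighbours were shifted by -0.49 as well, and its median pixel ratio was -0.41; the part of that patch was not tested. Kif6, a motor of motile cilia, had 46.0 and 54.8, 1.26-fold higher but less than 1 spot SD of 0.43. Kif24, which holds back cilium formation, had 678 and 565 (-0.19), with dim neighbours shifted by -0.43. Kif2a, a depolymerase used both in the spindle and in neurites, had 2865 and 2740 (0.02) on its brightest probe, but -0.21 and -0.10 on the other 2. Kif7, the Hedgehog pathway motor of the ciliary tip, had 120 and 121 (0.09). Kif9 had 127 and 109 (-0.15) on its brightest probe. Its other probes, of similar signal, gave 0.14, 0.00 and -0.02, all within the spot SD of 0.19, so its sign was not the same in all probes. Kif26a had 90.2 and 82.4 (-0.05) and Kif26b 1081 and 996 (-0.04, with dim neighbours shifted by 1.57). Kif12 and Kif27 were not well above background on either array. Over the family, 5 of the 9 genes with more than 1 measured probe had all probes of 1 sign, and 26 rested on 1 measured probe.

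The partners of each class were read from lists. Genes that work with the mitotic kinesins, with the kinetochore kinesin Cenpe among them, had a median of 0.226. Of 15 measured, 13 were higher, 6 of them by 1.2-fold, and none was 1.2-fold lower, where the shares of all measured genes were 46.8%, 6.80% and 5.51%. Nusap1, a spindle microtubule binder, had 451 and 541 (0.34), Birc5 (survivin) of the passenger complex 7209 and 8559 (0.33), and Ect2, the cytokinesis exchange factor recruited by centralspindlin, 667 and 776 (0.30). Cenpe itself, which falls outside the Kif names, had 2586 and 2993 (0.29), while Tpx2, the spindle assembly factor that loads Kif11 and Kif15, had 1851 and 1710 (-0.03). Proliferation genes had a median of 0.210 with 14 of 15 higher and 4 past 1.2-fold, against the same shares. The largest ratios were those of Mki67 (0.32) and of Top2a, Ccna2 and Foxm1 (0.29 each).

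Partners of the transport motors had medians near 0. Light chains and cargo adaptors had a median of -0.012, with 9 of 19 higher, against 46.8% of all measured genes, a share that also stands behind the counts of the next 3 lists. Mapk8ip3, the adaptor that links Kif5 to axonal cargo, had 10361 and 13322 (0.44). It was the 1 member of 19 measured on both arrays past 1.2-fold, where 6.80% of all measured genes passed that line upward and 5.51% downward. The light chain Klc2 had 0.21 and Map7d1, a microtubule protein that recruits Kif5, -0.17. Mapk8ip2 was above background in normal glucose only, with 166 and 23.9. Set against the detection floor of the high glucose array it was 6.56-fold lower. Its median pixel log2 ratio was -2.25, a smaller difference, so 6.56 is not a minimum. Dynein and dynactin, the motor complex of the opposite direction, had -0.004 over 23 genes, of which 11 were higher. The dynein heavy chain Dync1h1 had 23278 and 27217 (0.31). Bicd1, an adaptor, had -0.19 from 55.6 and 46.1, signals at which a spot has an SD of 0.43. Intraflagellar transport genes had 0.007, with 9 of 18 higher; Ift140 had -0.35 from 45.5 and 33.8. Tubulins, the track itself, had 0.027 with 8 of 13 higher, and Tubb2b had 11549 and 8089 (-0.43) and Tuba8 400 and 501 (0.41). If arrays were set to equal medians, the median of all genes would be -0.068 in place of -0.007, so small differences from 0 have no firm sign.

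**Figure D5:**
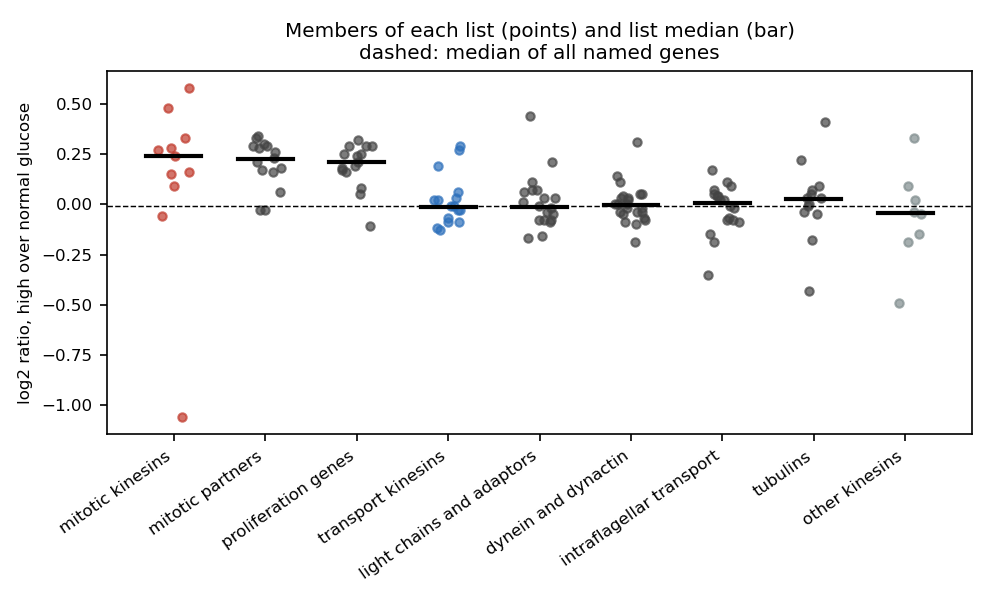
Log2 ratio of every measured member of each kinesin, partner, proliferation and track list (points, 1 gene each) with the list median (bar); the dashed line is the median of all named genes, -0.007. The medians of the mitotic kinesins (0.242), their partners (0.226) and the proliferation genes (0.210) lie above the line, and those of the other 6 lists plotted between -0.044 and 0.027.

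On these arrays 56.3% and 57.6% of gene spots were well above background in normal and high glucose, and none was saturated. Of 9 pericyte markers 8 were measured, with log2 ratios from -0.45 to 0.58; Kcnj8 was not above background. Among markers of other cells, Cdh5, Tek, Tie1 and Emcn of endothelium, Epcam and Cdh1 of epithelium and Rbfox3 of neurons were not above background on either array. Others were well above background on both, among them Kdr of endothelium (7379 and 7075), Itgam of myeloid cells (21959 and 22557), Snap25 of neurons (16113 and 15871) and Krt18 of epithelium (594 and 538). In all, 3 of 7 endothelial and 3 of 5 epithelial markers were measured, and 4 immune and 5 neuron and glia markers. The median log2 ratio was 0.019 for the endothelial, 0.225 for the epithelial, 0.094 for the immune and -0.062 for the neuron and glia markers measured. Of the 3 epithelial markers, Krt5 (45.8 and 50.6, ratio 0.22) and Krt14 (29.8 and 37.6, ratio 0.41) were dim, with a spot SD of 0.43 at such signals. The brighter Krt18 had -0.06. The part of other cells in the kinesin signals was not tested.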

How the data were processed

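Gene expression was measured on 2 Agilent 1-colour arrays on 1 slide, each from a pool of 3 samples. The authors' signal is a linear intensity made with Feature Extraction 11.5.1.1, per the file headers, with background subtracted, detrended within the array and not scaled between arrays; version 9.3.2.1 is named by the submitters' processing notes. Among the other columns used here are 0 or 1 flags and the median signals of a spot and of its local background. The authors' deposited value table held the same linear signal for 55249 of 55249 probes with 1 spot, within a relative tolerance of 0.0001, with medians of 49.6 and 48.9.

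From 59305 gene spots, log2 signals were averaged per probe, and the 75th percentile of the 55681 probes was taken off on each array. RefSeq accessions without versions named 27509 probes through the GRCm38.p6 table (none with several symbols); 28172 stayed unnamed. The brightest probe stood for a gene, and counted as well above background if at least 0.5 of its spots did. For a gene above background on 1 array, the fold given used the dim signal or, if higher, that array's detection floor (26.9 for normal, 24.0 for high glucose). That floor is the lowest signal there among spots well above background, and such a fold is not a strict minimum. The median pixel ratio was centred on its median over spots well above background on both arrays. The shift of dim neighbours was taken over at least 3 dim spots within 2 rows and columns. No test was run. Counting at 1.2-fold was tried on simulated data in which genes with signals over 512 were made 1.5-fold higher. It does not show how dimmer genes or differences near 1.2-fold are counted. The array number limits the precision.

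Members, roles, lists and the 1.2-fold line were chosen with earlier results of these data known. All measured mitotic and transport members were named, other members past 1.2-fold and the companions with the largest ratios; further genes (the remaining other kinesins, Cenpe, Tpx2, Klc2 and the like) were named after their values were seen. Kif4-ps, a pseudogene, was left out. Overlapping promoters on opposite strands were reverse complements in 1627 of 1627 pairs. R 4.3.3 with limma 3.58.1 ran the quantile, cyclic loess and normexp alternatives. Normexp on mean spot signals was not run, since that column is not used here. Some markers of other cell types are not reported here.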

Additional observations from a re-analysis of the deposited data

How the results depend on the processing

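No paired analysis was possible because each group has 1 array. Across the alternatives the mitotic median ran from 0.182 to 0.287, the transport median from -0.074 to 0.019 and their difference from 0.210 to 0.318; leaving out each mitotic kinesin in turn gave 0.199 to 0.258. With each array centred on its median, the medians were 0.182 and -0.074, and 3 mitotic and 0 transport kinesins passed 1.2-fold upward in place of 5 and 2. With normexp on median spot signals and an offset of 50, chosen after seeing the data, 2 and 1 passed; the offset shrinks dim ratios. With a smooth position trend removed, 3 and 1 passed. Among genes brighter than the median measured gene only Kif20a and Kif22 remained as mitotic kinesins against 7 transport kinesins, the difference was 0.318, and 1 and 1 passed. At 1.5-fold 0 and 0 passed. Kifc1 stayed between -1.12 and -1.01 in these settings, and the sign of each measured mitotic kinesin was the same in them. Among transport kinesins Kif16b, Kif1a, Kif1b, Kif21b, Kif3b, Kif5a and Kifc2 changed sign in at least 1 setting. The planned normexp fit on mean spot signals was not run. Signals below 128 limit Kif15, Kif11 and Kif2c most.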
